A study of Mus musculus with 40 samples.

Results

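Piericidin A, which blocks complex I of the respiratory chain, was given to wild-type (WT) bone marrow-derived macrophages (BMDMs) that received no lipopolysaccharide (LPS), and the transcriptome of these resting cells was compared with that of untreated cells of the same mice. The libraries were chosen by their labels: WT genotype, with treatment either piericidin A alone or none. This gave 10 of the 40 libraries of the series, in 5 pairs that share a library number. Libraries with the same number were taken to come from the same mouse, and the mice are called WT mouse 1 to 5 here.

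The mice were C57/Bl6 by the labels, male and female, 8 to 14 weeks old. WT mice carried the Vav-iCre driver without the NDI1 allele. NDI1 mice carried a Cre-dependent yeast NADH dehydrogenase, NDI1, in the Rosa26 locus, switched on by Vav-iCre in hematopoietic cells, and served as the comparison for the specificity of the drug. Bone marrow was grown for 6 days with M-CSF in medium that held methyl-pyruvate and uridine, which all groups shared. Piericidin A was used at 500 nM; where LPS was given, it followed the drug by 30 min and was kept at 100 ng/ml for 4 h. How long piericidin A alone stayed on the resting cells is not given separately. There were 8 groups of 5 libraries: each genotype untreated, with piericidin A, with LPS, and with both. Poly(A) RNA was sequenced, and reads were counted per gene.

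Complex I is the main point where NADH is reoxidised in mitochondria, and the energy of that step helps build the proton gradient that drives ATP synthase. When it is blocked, NADH accumulates, aspartate and other products that need NAD+ become scarce, and cells lean on glycolysis for ATP. Cells are known to report mitochondrial failure through the integrated stress response, in which phosphorylation of the initiation factor eIF2α favours translation of the transcription factor ATF4, and ATF4 then switches on genes for amino acid synthesis, amino acid uptake and tRNA charging. NDI1 can take over the oxidation of NADH while the drug is present, though without adding to the proton gradient.

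The 5 untreated WT libraries held 8955095 to 12263814 counts and the 5 piericidin A libraries 9161690 to 11682125. Of 20 macrophage genes, 19 were expressed well enough to test, and Clec4f, a Kupffer cell gene, was at 0 in all 10 of these libraries; their summed level was 27096 to 37482 CPM (counts scaled to the size of the library) in untreated and 27997 to 44875 in treated cells. Markers of neutrophils were low, except in WT mouse 4: the sum over 10 of them was 27.8, 113, 34.5, 560 and 61.3 CPM in the untreated libraries of mice 1 to 5, and 37.5, 131, 57.1, 1821 and 81.1 CPM in the treated ones. The libraries of WT mouse 4 thus stood apart before any comparison, and results that rest on them are given without that mouse as well. NDI1 mouse 4 stood apart likewise, at 553 CPM untreated and 703 CPM treated, against at most 152 CPM in the other resting NDI1 libraries. No comparison was rerun without NDI1 mouse 4. The samples are bulk RNA, so fewer cells of a type and less RNA per cell cannot be told apart.

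Piericidin A changed the level of 4049 of the 11853 genes tested in resting WT BMDMs (edgeR quasi-likelihood test with the mouse as a block, so that each pair is compared within its mouse; Benjamini-Hochberg adjusted p under 0.05). Of all genes tested, 17.2% were higher (2041 genes) and 16.9% lower (2008 genes), or 34.2% in either direction, and these shares are the background against which the gene lists are read. Changes of at least 2-fold, an absolute log2 fold change of 1 or more, were fewer and mostly upward, with 352 genes higher and 157 lower. The median absolute log2 fold change of the called genes was 0.48, and the median over all tested genes was −0.0049. The direction was the same in all 5 mice for 3632 of the called genes. Untreated and treated libraries did not overlap at all for 1346 genes, or 11.4% of those tested. Without the block, 1759 genes were called (14.8%; 923 higher and 836 lower), of which 1758 were among the 4049. Without WT mouse 4, the count was 2821.

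The size of the response differed between mice. Over the genes called from the other 4 mice, the mean log2 difference in the called direction was 0.52 in mouse 1, 0.35 in mouse 2, 0.46 in mouse 3, 0.83 in mouse 4 and 0.74 in mouse 5. These sets held 3473, 3898, 3726, 2821 and 2980 genes, so the means are not over the same genes. In every mouse most of these genes moved in the direction set by the others, from 91.0% in mouse 2 to 96.4% in mouse 4.

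**Figure D1:**
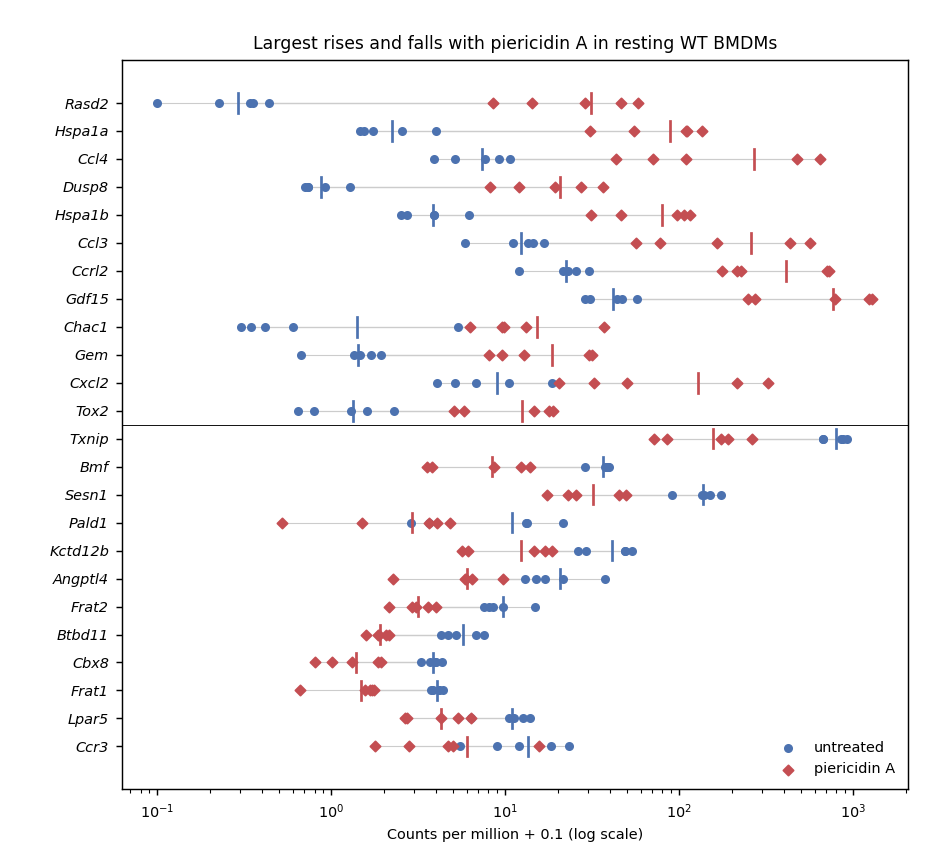
Level in CPM plus 0.1 (log scale) of the 12 genes with the largest rises (above the line) and the 12 with the largest falls (below it), with a circle for each untreated and a diamond for each piericidin A library of the 5 WT mice. For all 12 rises the treated libraries lie above every untreated library, while among the falls Pald1 and Ccr3 overlap.

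The genes with the largest rises included heat shock genes, chemokines and genes of the integrated stress response. Rasd2, a small Ras-like GTP-binding protein also called Rhes (mm10, chromosome 8, 75213944 to 75224113), was almost silent in untreated cells, at 0, 0.125, 0.338, 0.238 and 0.254 CPM in mice 1 to 5, and reached 46.2, 8.36, 14.2, 57.9 and 28.7 CPM with piericidin A; values of single libraries are given in this order of mice throughout. The treated libraries were all far above the untreated ones, with mouse 2 lowest. The fitted log2 fold change was 7.09 ± 0.33 (SE; adjusted p = 2e-16), and it rests on very few untreated reads, so its size and standard error are uncertain.

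Hspa1a and Hspa1b encode the inducible HSP70 chaperones, which refold damaged proteins and are the textbook read-out of the heat shock factor HSF1. Hspa1a (mm10, chromosome 17, 34969190 to 34972156, minus strand) went from 1.63, 1.43, 2.44, 1.35 and 3.87 CPM to 111, 30.6, 109, 135 and 55.1 CPM, a log2 fold change of 5.18 ± 0.30 (adjusted p = 5.2e-14). Hspa1b (mm10, chromosome 17, 34956436 to 34959238, minus strand) went from 2.61, 2.43, 3.79, 3.82 and 6.09 CPM to 96.6, 31.2, 106, 115 and 45.9 CPM, with a log2 fold change of 4.27 ± 0.31 (adjusted p = 4.2e-12). Every treated library was above every untreated library for both genes, and mouse 2 had the smallest treated level in each. The genes are near-identical copies, and how reads were divided between them is uncertain.

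The 250 bases before the RefSeq start of both genes (GRCm38.p6) are shown because this pair rose most among the chaperone genes listed. Capitals mark the heat shock element searched for, GAANNTTC, which reads the same on both strands. The regions are chr17:34972157-34972406, minus strand for Hspa1a and chr17:34959239-34959488, minus strand for Hspa1b; they differ at 3 of 250 positions, and each holds the element 104 bases before the start.
Hspa1a: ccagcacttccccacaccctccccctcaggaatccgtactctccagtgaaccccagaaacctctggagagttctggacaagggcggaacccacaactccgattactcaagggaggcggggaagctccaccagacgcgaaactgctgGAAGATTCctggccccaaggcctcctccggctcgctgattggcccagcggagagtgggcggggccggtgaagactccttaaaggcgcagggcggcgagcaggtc
Hspa1b: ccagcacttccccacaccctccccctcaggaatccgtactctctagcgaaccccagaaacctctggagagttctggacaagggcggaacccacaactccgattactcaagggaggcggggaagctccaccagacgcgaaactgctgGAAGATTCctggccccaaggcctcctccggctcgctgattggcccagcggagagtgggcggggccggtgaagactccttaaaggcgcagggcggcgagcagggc
The element was present in the same window of 7.73% of 27025 genes and of 6.19% of the tested genes. Of the 10 genes in the heat shock list with a region, 4 held it: Dnaja1, Hspa1a, Hspa1b and Hspb1. Dnaja1, which overlaps Smu1, was not called (adjusted p = 0.55). A match describes letters and not a bound site.

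The other cytosolic chaperones were counted with this pair. Of 14 heat shock genes tested, 6 rose and 0 fell, which is 42.9% called against 34.2% of all genes, and 4 of the rises were also called without the block. The median log2 fold change was 0.08, and 0.14 without WT mouse 4. Hspb1, the small heat shock protein HSP27, rose by 2.38 ± 0.48 (adjusted p = 0.00025) from a level under 0.5 CPM in every untreated library. Hsp90aa1, the inducible HSP90, rose by 0.44 ± 0.09 (adjusted p = 0.00043). Hspa4, an HSP70 exchange factor, had a log2 fold change of −0.11 ± 0.07 (adjusted p = 0.18).

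Genes of the integrated stress response were mostly higher. Of 16 ATF4 and CHOP genes tested, 13 rose and 0 fell, and 11 of them were called without the block as well. Their median log2 fold change was 1.18, and the median in single mice ran from 0.74 in mouse 2 to 1.43 in mouse 4. Differences in single mice were taken on log2 CPM with a prior count of 2, which pulls low genes toward 0, so they are not on the scale of the fitted values. Atf4 itself was at 132, 141, 138, 105 and 237 CPM in untreated and 350.0, 251, 292, 409 and 604 CPM in treated cells. The groups did not overlap, and the log2 fold change was 1.33 ± 0.12 (adjusted p = 4.4e-10).

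Gdf15, a secreted stress hormone of the TGF-β family that is known as a serum marker of mitochondrial disease, rose from 56.8, 43.9, 28.5, 30.6 and 46.7 CPM to 787, 271, 249, 1285 and 1229 CPM (mm10, chromosome 8, 70629393 to 70632456). The log2 fold change was 3.92 ± 0.29 (adjusted p = 5.3e-12), and mice 2 and 3 had the lowest treated levels, still well above all untreated libraries. Chac1, which degrades glutathione, went from 0.245, 0.498, 0.203, 0.318 and 5.27 CPM to 9.47, 6.13, 9.69, 13.1 and 36.9 CPM (log2 fold change 3.80 ± 0.39, adjusted p = 6.4e-09). Mouse 5 was the highest in both groups for Chac1, and its untreated level lay just below the lowest treated one; without WT mouse 5 the log2 fold change was 4.80.

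Trib3, a pseudokinase that feeds back on ATF4 and CHOP, was at 16.2, 16.1, 19.2, 12.1 and 46.4 CPM in untreated and 63.1, 44.3, 64.6, 39.7 and 122 CPM in treated cells. Mouse 5 was again the highest in both groups, so the groups overlapped although every mouse rose (log2 fold change 1.64 ± 0.12, adjusted p = 6.3e-12). Atf3, a stress-induced repressor, rose by 1.43 ± 0.13, and Ddit3, which encodes CHOP, by 1.10 ± 0.12 (adjusted p = 9e-10 and 1.7e-08; Ddit3 overlaps Mars in the genome). Ppp1r15a, the stress-induced regulator that directs a phosphatase to eIF2α, rose by 1.35 ± 0.18 (adjusted p = 1.1e-06). Atf5, which drives the mitochondrial unfolded protein response, rose by 0.48 ± 0.09 (adjusted p = 9.1e-05, and 0.055 without the block; it overlaps Il4i1).

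None of the 4 kinases that start this response rose with it. Of 10 genes for eIF2α kinases and the mitochondrial relay, 2 rose and 4 fell (0 and 4 without the block). Eif2ak3, which encodes the ER kinase PERK, was at 30.8, 31.4, 33.4, 32.0 and 25.6 CPM in untreated and 19.8, 22.4, 20.6, 14.4 and 11.0 CPM in treated cells. The groups did not overlap, with a log2 fold change of −0.81 ± 0.13 (adjusted p = 1.3e-05). Eif2ak2, the double-stranded RNA kinase PKR, fell by 0.96 ± 0.14 on the log2 scale (adjusted p = 4.3e-06). For Oma1 and Dele1, the protease and messenger that carry mitochondrial stress to the kinase HRI, the log2 fold changes were 0.03 ± 0.11 and 0.10 ± 0.09 (adjusted p = 0.83 and 0.41).

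Genes that make amino acids and one-carbon units rose in part. Of 15 tested, 8 rose and 1 fell (5 and 0 without the block), with a median of 0.40. Mthfd2, the mitochondrial folate enzyme, went from 15.7, 15.4, 12.5, 19.7 and 30.5 CPM to 64.9, 41.1, 50.1, 71.7 and 91.4 CPM, without overlap (log2 fold change 1.78 ± 0.12, adjusted p = 2.1e-12). Asns, which makes asparagine, rose by 1.27 ± 0.09 (adjusted p = 7.1e-12). Phgdh and Psat1, the enzymes at the start of serine synthesis, rose by 0.58 ± 0.18 and 0.42 ± 0.14 (adjusted p = 0.012 and 0.019, but 0.25 and 0.21 without the block).

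Amino acid transporters moved in both directions. Of 14 tested, 6 rose and 2 fell (5 and 0 without the block). Slc7a11, the cystine importer, went from 15.5, 17.6, 23.7, 30.3 and 43.5 CPM to 104, 88.2, 117, 154 and 226 CPM; no treated library was below any untreated library, and the log2 fold change was 2.40 ± 0.34 (adjusted p = 1.9e-06). Slc7a5, the large neutral amino acid carrier, rose by 1.89 ± 0.19, and Slc7a1, the arginine and lysine carrier, by 1.63 ± 0.13 (adjusted p = 3.3e-09 and 1.4e-11). Slc3a2, the shared heavy chain of Slc7a5 and Slc7a11, was already abundant and rose from 430.1 ± 48.6 to 820.5 ± 200.2 CPM (SD, n = 5; log2 fold change 0.90 ± 0.08, adjusted p = 9.1e-10).

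Windows before Chac1 and Slc7a11 are shown as members of the ATF4 and transporter lists that held the C/EBP-ATF response element, TGATGNAA, searched on both strands and marked in capitals. The regions are chr2:119350992-119351241, plus strand for Chac1, with the match 193 bases before the start, and chr3:50443614-50443863, minus strand for Slc7a11, with matches 66 and 47 bases before it.
Chac1: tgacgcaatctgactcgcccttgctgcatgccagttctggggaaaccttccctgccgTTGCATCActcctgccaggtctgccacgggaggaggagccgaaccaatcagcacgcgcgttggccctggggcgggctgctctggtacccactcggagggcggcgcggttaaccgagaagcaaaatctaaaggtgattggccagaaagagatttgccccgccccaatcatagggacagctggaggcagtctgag
Slc7a11: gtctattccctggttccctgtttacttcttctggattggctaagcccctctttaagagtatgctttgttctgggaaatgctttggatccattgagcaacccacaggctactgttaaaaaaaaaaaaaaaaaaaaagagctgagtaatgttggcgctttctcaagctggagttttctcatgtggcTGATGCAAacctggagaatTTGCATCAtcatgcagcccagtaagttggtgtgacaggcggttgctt
The element stood in the window of 3.91% of all genes and 2.46% of the tested genes. It was present for 4 of 14 ATF4 and CHOP genes with a region (Atf3, Chac1, Nupr1 and Vldlr), 2 of 11 transporters (Slc7a11 and Slc7a7), 2 of 13 synthesis genes (Asns and Pck2) and 3 of 12 cytosolic tRNA synthetases (Aars, Gars and Tars). Of these holders, Nupr1, Vldlr, Slc7a7 (which overlaps Oxa1l) and Tars were not called in resting WT cells (adjusted p = 0.13, 0.87, 0.74 and 0.14).

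Cytosolic and mitochondrial tRNA synthetases load amino acids onto tRNA, and each kind was counted apart. Of 20 cytosolic ones, 10 rose and 0 fell, and 6 rises held without the block (median 0.20). Rars, for arginine, was at 66.8, 63.0, 74.6, 72.6 and 79.2 CPM in untreated and 106, 102, 113, 129 and 135 CPM in treated cells, without overlap (log2 fold change 0.71 ± 0.08, adjusted p = 1.9e-08). Cars, for cysteine, rose by 0.78 ± 0.09 (adjusted p = 3.7e-08). Of 17 mitochondrial synthetases, 3 rose and 3 fell (35.3% called against 34.2% of all genes), with a median of −0.18. Without the block 2 rises and 0 falls held, and without WT mouse 4 the falls numbered 1. Wars2, for mitochondrial tryptophan tRNA, rose by 0.69 ± 0.13 (adjusted p = 0.00018).

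Some endoplasmic reticulum stress genes rose. Of 21 tested, 7 rose and 1 fell, which is 38.1% called against 34.2% of all genes. But 2 of the rises held without the block and 4 without WT mouse 4. Ern1, the stress sensor IRE1α, went from 85.0, 88.5, 87.1, 75.7 and 88.0 CPM to 176, 124, 134, 121 and 158 CPM, and the groups did not overlap (log2 fold change 0.74 ± 0.14, adjusted p = 9.4e-05). Hspa5, the main ER chaperone BiP, rose by 0.41 ± 0.08 (adjusted p = 0.00031, and 0.12 without the block). Xbp1, the transcription factor spliced by IRE1α, had a log2 fold change of 0.13 ± 0.08 (adjusted p = 0.2); its splicing was not measured.

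Mitochondrial chaperones and proteases rose in 7 of 16 tested genes and fell in 0, with a median of 0.25, and 2 rises held without the block. Hspe1, the HSP10 cofactor, rose by 0.59 ± 0.12 (adjusted p = 0.00046; it overlaps Hspd1). Hspa9, the mitochondrial HSP70, rose by 0.47 ± 0.07 (adjusted p = 2e-06, and 0.068 without the block).

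Many glycolytic genes rose. Of 23 tested, 15 rose and 0 fell, with a median log2 fold change of 0.39 and a range over the mice from 0.23 to 0.53; 4 rises held without the block and 11 without WT mouse 4. Hk2, the hexokinase that traps glucose as its phosphate, was at 56.6, 43.2, 37.3, 106 and 75.2 CPM in untreated and 227, 74.9, 98.4, 238 and 168 CPM in treated cells. Each mouse rose, and mice 1, 4 and 5 had higher treated levels than mice 2 and 3 (log2 fold change 1.33 ± 0.15, adjusted p = 2.5e-08). The groups overlapped, since untreated mouse 4 was above treated mice 2 and 3, and untreated mouse 5 just above treated mouse 2. Slc16a1, the lactate carrier MCT1, rose by 1.40 ± 0.15, and Pfkfb3, which makes the activator of phosphofructokinase, by 1.17 ± 0.18 (adjusted p = 1.8e-08 and 1.1e-05). Slc2a1, the glucose carrier GLUT1, rose by 1.16 ± 0.20 (adjusted p = 5.3e-05), and Ldha, which makes lactate, by 0.48 ± 0.11 (adjusted p = 0.00076); these had adjusted p = 0.067 and 0.2 without the block.

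Other known targets of the hypoxia factor HIF-1 rose in 7 of 16 tested genes and fell in 0, and 5 rises held without the block. Vegfa, the angiogenic growth factor, went from 46.5, 40.3, 54.8, 77.9 and 38.5 CPM to 215, 132, 197, 202 and 161 CPM, with no overlap (log2 fold change 1.85 ± 0.14, adjusted p = 1e-11). Ndrg1, a hypoxia and stress marker, rose by 1.74 ± 0.18 (adjusted p = 1.3e-08). Adm, the peptide adrenomedullin, rose by 3.52 ± 0.60 (adjusted p = 3.2e-05) from at most 0.135 CPM in any untreated library, and by 2.94 without WT mouse 4. Egln3, a HIF prolyl hydroxylase, rose by 0.95 ± 0.32 (adjusted p = 0.023, 0.35 without the block and 0.053 without WT mouse 4). Pdk1, a kinase that closes the entry of pyruvate to the TCA cycle, had a log2 fold change of 0.14 ± 0.14 (adjusted p = 0.48).

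In the same ranking, the largest fall was that of Txnip, the thioredoxin-interacting protein. Txnip restrains glucose uptake and is induced by the glucose sensor MondoA. It was among the abundant transcripts of untreated cells, at 875, 855, 921, 671 and 672 CPM, and was at 191, 262, 174, 84.5 and 71.1 CPM with piericidin A (mm10, chromosome 3, 96557957 to 96561883). The groups were far apart, and mice 4 and 5 had the lowest treated levels. The log2 fold change was −2.54 ± 0.22 (adjusted p = 1.6e-10). Of 5 genes of the MondoA and TXNIP family, 4 fell and none rose, 3 of them also without the block. Arrdc4, an arrestin-like relative of TXNIP, went from 50.5, 62.6, 61.7, 52.9 and 46.9 CPM to 23.9, 37.7, 25.0, 29.1 and 37.0 CPM, without overlap (log2 fold change −0.86 ± 0.13, adjusted p = 8.2e-06). Arrdc3 fell by 0.84 ± 0.11 on the log2 scale (adjusted p = 5.5e-07).

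The window before Arrdc4 is shown because it holds the E-box CACGTG, the core of the element that MondoA and its partner Mlx bind, in capitals (GRCm38.p6, chr7:68749239-68749488, minus strand, 193 bases before the start).
Arrdc4: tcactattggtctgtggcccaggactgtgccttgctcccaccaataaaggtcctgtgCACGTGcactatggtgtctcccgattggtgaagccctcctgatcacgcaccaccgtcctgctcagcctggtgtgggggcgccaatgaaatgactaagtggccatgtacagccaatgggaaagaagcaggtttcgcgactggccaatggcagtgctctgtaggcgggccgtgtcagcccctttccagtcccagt
The E-box, which is the same on both strands, was present before 6.86% of all genes and 10.1% of the tested genes, and before 2 of the 5 genes of this family, Arrdc4 and Mlx, of which Mlx was not called (adjusted p = 0.47).

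Sesn1, a p53 and FOXO target that restrains mTORC1, fell from 175, 139, 91.2, 134 and 149 CPM to 45.2, 49.2, 23.0, 25.5 and 17.3 CPM, and no treated library reached the lowest untreated one (log2 fold change −2.16 ± 0.17, adjusted p = 1.3e-11). Its relative Sesn2, an ATF4 target, rose by 0.66 ± 0.13 (adjusted p = 0.00016). Of 13 p53 targets tested, 3 rose and 3 fell (2 and 2 without the block). Phlda3, an inhibitor of AKT, rose by 0.89 ± 0.15 and Trp53inp1, a p53 cofactor, fell by 0.79 ± 0.15 on the log2 scale (adjusted p = 2.3e-05 and 0.00015). Cdkn1a, the cell cycle inhibitor p21, had a log2 fold change of 0.30 ± 0.15 (adjusted p = 0.12).

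Bmf, a pro-apoptotic BCL-2 family gene, fell from 38.1, 37.3, 28.5, 39.2 and 39.0 CPM to 13.7, 12.2, 8.56, 3.68 and 3.45 CPM (log2 fold change −2.18 ± 0.24, adjusted p = 2.1e-08), and mice 4 and 5 again had the lowest treated levels. Angptl4, an inhibitor of lipoprotein lipase, went from 21.4, 14.8, 16.7, 37.4 and 12.9 CPM to 6.36, 5.85, 5.76, 9.54 and 2.15 CPM (log2 fold change −1.78 ± 0.23, adjusted p = 4.3e-07); no groups overlapped for either gene. The other large falls were Pald1 (−1.90), Kctd12b (−1.80), the Wnt activators Frat2 (−1.62) and Frat1 (−1.52), Btbd11 (−1.61), the Polycomb gene Cbx8 (−1.57), the lysophosphatidic acid receptor Lpar5 (−1.39) and the chemokine receptor Ccr3 (−1.38), as log2 fold changes. Ccr3 was not called without the block (adjusted p = 0.12). Of 9 genes of AMP-activated protein kinase, the sensor of low ATP, and its partners, 2 rose and 2 fell, with 1 and 0 called without the block and 1 and 0 without WT mouse 4.

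**Figure D2:**
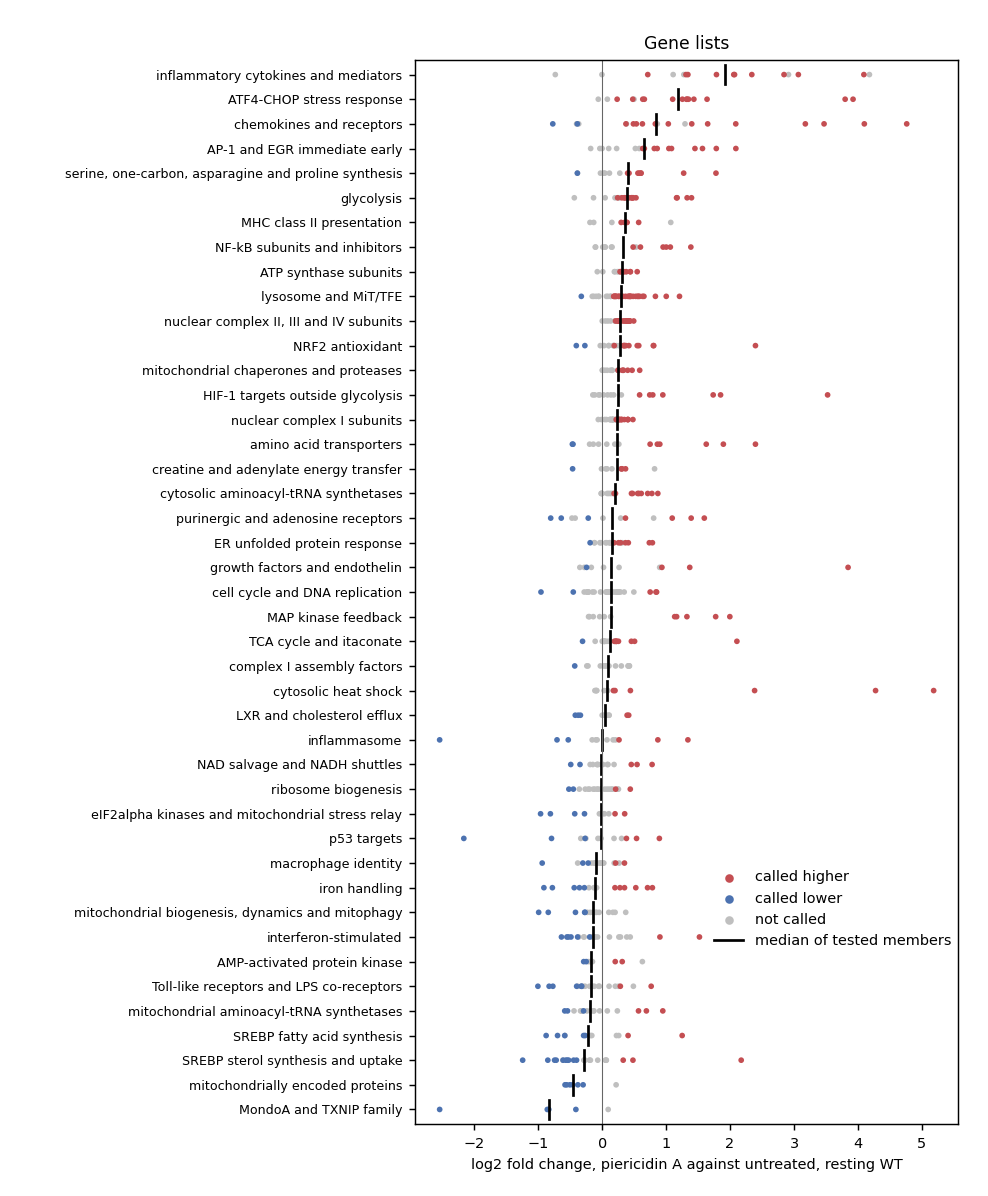
Log2 fold change with piericidin A against untreated in resting WT BMDMs for each tested member of 43 gene lists, one row a list, with rises called in red, falls called in blue, genes not called in grey and the median of the list as a black bar. Medians run from 1.92 for inflammatory cytokines and mediators to −0.84 for the MondoA and TXNIP family.

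Genes of sterol synthesis and uptake, the targets of SREBP2, moved in both directions. Of 23 tested, 10 fell and 3 rose, with a median of −0.29, but 1 fall and 1 rise held without the block, and 1 rise and 9 falls without WT mouse 4. Hmgcs1, which makes HMG-CoA, fell by 0.61 ± 0.13 on the log2 scale (adjusted p = 0.00058, but 0.13 without the block). Insig1, which holds SREBP in the ER, went the other way, from 29.7, 59.5, 31.4, 42.1 and 83.8 CPM to 210.4, 94.2, 82.2, 294 and 656 CPM. It rose in each mouse, most in mice 1, 4 and 5, and the log2 fold change was 2.17 ± 0.23 (adjusted p = 1.8e-08).

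Fatty acid synthesis genes fell in 5 and rose in 2 of 12 tested (2 and 0 without the block). Fasn, the fatty acid synthase, went from 50.9, 48.7, 42.4, 50.1 and 55.3 CPM to 33.7, 33.6, 31.7, 27.4 and 25.1 CPM, without overlap (log2 fold change −0.70 ± 0.11, adjusted p = 8.3e-06). The desaturases Scd2 and Scd1 moved in opposite directions, by −0.88 ± 0.21 and 1.25 ± 0.36 (adjusted p = 0.0014 and 0.007, but 0.12 and 0.19 without the block). Of 10 genes of the oxysterol receptor LXR and cholesterol efflux, 2 rose and 3 fell, 1 and 0 without the block, and 1 and 2 without WT mouse 4. Abca1, the cholesterol exporter, had a log2 fold change of −0.38 ± 0.14, with an adjusted p = 0.039 with the block, 0.38 without it and 0.27 without WT mouse 4.

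The called transcripts made in the mitochondrion were all lower, and the called nuclear transcripts for subunits of the same complexes were all higher. Of 13 mitochondrially encoded proteins, 7 were tested, 6 fell and 0 rose, with a median of −0.46. mt-Cytb, the cytochrome b of complex III, was at 466, 369, 307, 836 and 592 CPM in untreated and 320.5, 267, 278, 554 and 285 CPM in treated cells. It fell in each mouse, the groups overlapped, and mouse 4 was the highest in both; the log2 fold change was −0.55 ± 0.09 (adjusted p = 2.8e-05, and 0.15 without the block). mt-Nd1, a complex I subunit, fell by 0.58 ± 0.10 on the log2 scale (adjusted p = 5.7e-05, and 0.3 without the block). No member of this list was called without the block. mt-Co1, the catalytic subunit of complex IV and the most abundant of these transcripts, was the exception, at 0.22 ± 0.09 (adjusted p = 0.066). The mitochondrial share of all counts had a median of 0.597% in untreated and 0.406% in treated libraries, with ranges that overlapped. Within the mouse it was lower in the treated library of mice 1, 2, 4 and 5 (0.597% to 0.518%, 0.486% to 0.406%, 0.876% to 0.758% and 0.602% to 0.398%) and higher in that of mouse 3 (0.367% to 0.384%).

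Nuclear subunits of complex I, the target of the drug, rose in 12 of 36 tested genes and fell in 0, a share of 33.3% called against 34.2% of all genes in either direction and 17.2% higher. The median was 0.23, the median of single mice ran from 0.09 in mouse 1 to 0.43 in mouse 4, none of the rises held without the block, and 2 held without WT mouse 4. Subunits of complexes II, III and IV rose in 16 of 25 (6 without the block, 6 without WT mouse 4), and those of ATP synthase in 9 of 16 (4 and 4). Uqcrh, of complex III, rose by 0.49 ± 0.12, and Atp5e, of ATP synthase, by 0.55 ± 0.16 (adjusted p = 0.0019 and 0.01, the latter 0.073 without WT mouse 4). Ndufs1, the core iron-sulfur subunit of complex I, which overlaps Eef1b2, was at 48.7, 54.3, 59.7, 52.0 and 57.3 CPM against 47.0, 50.1, 57.6, 48.8 and 57.6 CPM (log2 fold change −0.06 ± 0.06, adjusted p = 0.49). Of 14 assembly factors, 0 rose and 1 fell.

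Gene length moved with these results. With the tested genes in 5 groups by the length given in the table, the median log2 fold change went from 0.12 in the shortest to −0.12 in the longest group, and from 0.26 to −0.25 in WT mouse 4. Many respiratory chain subunits are short genes. The part of length in their rise was not tested.

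Genes of the TCA cycle and itaconate synthesis rose in 8 of 20 tested and fell in 1; 3 of the rises held without the block, and 4 without WT mouse 4. Acod1, which makes the immune metabolite itaconate, had the largest change, from 40.0, 282, 131, 144 and 367 CPM to 189.6, 1018, 424, 1074 and 1429.5 CPM. It rose in each mouse, while untreated levels spread widely between mice, and the log2 fold change was 2.11 ± 0.48 (adjusted p = 0.00092). Pdhb, of pyruvate dehydrogenase, rose by 0.51 ± 0.08 (adjusted p = 2.8e-05). Idh3b, an NAD-linked isocitrate dehydrogenase subunit that overlaps Nop56, rose by 0.46 ± 0.08 (adjusted p = 2.4e-05).

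Genes of NAD supply and of the shuttles that carry NADH electrons rose in 3 and fell in 2 of 15 tested (1 and 0 without the block). That is 33.3% called, close to the 34.2% of all genes. Got1, the cytosolic aspartate aminotransferase, was at 63.5, 61.3, 98.0, 61.5 and 48.6 CPM in untreated and 115, 97.2, 132, 117 and 99.5 CPM in treated cells, with mouse 3 highest in both groups (log2 fold change 0.78 ± 0.12, adjusted p = 6.6e-06). Nampt, the limiting enzyme of NAD salvage, rose by 0.54 ± 0.10, and Nnt, which makes NADPH from NADH, fell by 0.49 ± 0.09 on the log2 scale (adjusted p = 0.00012 and 6.2e-05, but 0.12 and 0.22 without the block).

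Of 10 genes of creatine and adenylate energy transfer, 3 rose and 1 fell (1 and 1 without the block). The share called was 40%, against 34.2% of all genes. Ckb, the brain-type creatine kinase that buffers ATP with phosphocreatine, was at 160.4, 104, 121, 103 and 92.8 CPM in untreated and 161, 102, 164, 145 and 140.1 CPM in treated cells. The libraries of mice 1 and 2 differed little, and the log2 fold change was 0.30 ± 0.11 (adjusted p = 0.035, but 0.24 without the block and 0.16 without WT mouse 4). Slc6a8, the creatine importer, rose by 0.31 ± 0.07 (adjusted p = 0.0015, and 0.28 without the block).

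Regulators of mitochondrial biogenesis, dynamics and mitophagy fell in 5 of 15 tested genes and rose in 0, and 2 falls held without the block. That is 33.3% called, against 34.2% of all genes in either direction and 16.9% lower. Tfb2m, a transcription factor for mitochondrial DNA, went from 5.95, 4.79, 4.53, 5.25 and 5.58 CPM to 2.73, 3.48, 2.74, 1.84 and 3.73 CPM, without overlap (log2 fold change −0.84 ± 0.18, adjusted p = 0.00044). Polg, the mitochondrial DNA polymerase, fell by 0.42 ± 0.11 on the log2 scale (adjusted p = 0.0028).

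Antioxidant genes under the regulator NRF2 rose in 11 and fell in 2 of 22 tested (4 and 2 without the block), with a median of 0.27. Besides Slc7a11, the largest rises were those of Srxn1, which repairs peroxiredoxins, at 0.81 ± 0.12 (adjusted p = 7.6e-06), and of Nfe2l2, which encodes NRF2, at 0.80 ± 0.10 (adjusted p = 3.7e-07). The much-used NRF2 markers Nqo1 and Gclm had log2 fold changes of 0.27 ± 0.18 and 0.10 ± 0.12 (adjusted p = 0.25 and 0.54).

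Iron genes went both ways, with 6 higher and 5 lower of 14 tested (3 and 1 without the block). Fth1, the ferritin heavy chain that stores iron, was the most abundant of them and went from 8526, 10037, 10352, 9669 and 10683 CPM to 14213, 15511, 16010.1, 21178 and 18421 CPM. Treated libraries were all above untreated ones, with a log2 fold change of 0.78 ± 0.10 (adjusted p = 1.6e-07). Slc11a2, the iron importer DMT1, rose by 0.71 ± 0.08, and Cd163, the hemoglobin scavenger, fell by 0.91 ± 0.16 on the log2 scale (adjusted p = 2.2e-08 and 4.3e-05).

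The lysosome list showed a wide, small rise. Of 37 lysosomal genes and genes of the MiT/TFE factors, 25 rose and 1 fell, which is 70.3% called against 34.2% of all genes; 12 rises held without the block. The median was 0.29, and it was above 0 in each mouse, from 0.18 to 0.40. Rragd, a RAG GTPase that is a known TFEB target and places mTORC1 on lysosomes, went from 49.9, 52.4, 54.4, 25.8 and 22.8 CPM to 110.2, 71.4, 92.1, 97.9 and 84.7 CPM, without overlap (log2 fold change 1.21 ± 0.18, adjusted p = 4.1e-06). Fnip2, a folliculin partner, rose by 1.00 ± 0.19 (adjusted p = 0.00013). Atp6v0d2, a subunit of the lysosomal proton pump, rose by 0.83 ± 0.10, and Sqstm1, the autophagy receptor p62, by 0.65 ± 0.11 (adjusted p = 2.6e-07 and 2.4e-05, but 0.14 and 0.095 without the block). The E-box CACGTG was present before 10 of the 30 members with a region, against 10.1% of the tested genes. The holders were Atp6v1a, Ctsa, Ctsd, Ctsl, Fnip1, Gla, Glb1, Lamp1, Mcoln1 and Rragc, and Ctsd was among those not called.

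Immediate early genes, which answer stress and growth signals within minutes, rose in 10 of 17 tested, fell in 0, and had a median of 0.66; 9 held without the block. Jun, an AP-1 subunit, was at 102, 91.0, 82.0, 102 and 81.6 CPM in untreated and 347, 180.2, 218, 369 and 278 CPM in treated cells. All treated libraries exceeded all untreated ones, with a log2 fold change of 1.57 ± 0.10 (adjusted p = 1.2e-12). Fosb rose by 2.09 ± 0.28 and Myc by 1.78 ± 0.25 (adjusted p = 9.8e-07 and 2.2e-06). Fos, the AP-1 partner of Jun, was at 120.0, 58.8, 87.4, 149 and 80.3 CPM against 146, 82.7, 134, 90.6 and 50.5 CPM, higher in mice 1 to 3 and lower in mice 4 and 5 (adjusted p = 1).

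Phosphatases that switch off MAP kinases rose in 5 of 11 tested feedback genes and fell in 0, and all 5 rises held without the block. Dusp4, which acts on ERK, went from 30.3, 38.0, 35.2, 26.5 and 53.8 CPM to 138, 104, 138, 116 and 248 CPM (log2 fold change 2.00 ± 0.19, adjusted p = 1.8e-09). Dusp1 rose by 1.77 ± 0.12 (adjusted p = 2.5e-12; it overlaps Ergic1). Dusp8, a phosphatase for JNK and p38 outside this list, was among the largest rises, from 0.815, 1.18, 0.609, 0.636 and 0.634 CPM to 19.3, 8.01, 11.9, 36.5 and 27.1 CPM (log2 fold change 4.56 ± 0.27, adjusted p = 5.2e-14). No groups overlapped for these phosphatases. Gem, a small GTPase induced by mitogens, rose by 3.64 ± 0.34, and Tox2, a transcription factor, by 3.21 ± 0.33 (adjusted p = 9.1e-10 and 5.6e-09).

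Chemokine and cytokine genes were among those that rose without LPS. Of 20 chemokines and receptors tested, 13 rose and 2 fell (8 and 0 without the block), with a median of 0.85. Ccl4, the chemokine MIP-1β (mm10, chromosome 11, 83662584 to 83664683), went from 5.05, 9.09, 3.79, 10.6 and 7.55 CPM to 109.5, 70.2, 43.2, 640.5 and 477 CPM, and Ccl3, MIP-1α, from 10.9, 13.4, 5.75, 14.4 and 16.5 CPM to 164, 77.2, 55.9, 565 and 434 CPM. All treated libraries were above all untreated ones for both genes, and mice 4 and 5 were several times higher than mice 1 to 3. The log2 fold changes were 4.76 ± 0.37 and 4.10 ± 0.28 (adjusted p = 1.5e-11 and 2.1e-12). Cxcl2, a neutrophil attractant, went from 5.05, 6.72, 3.93, 10.4 and 18.4 CPM to 50.1, 32.4, 20.2, 215 and 323 CPM, again highest in mice 4 and 5 (log2 fold change 3.47 ± 0.36, adjusted p = 9.7e-09). Ccrl2, an atypical chemokine receptor, rose from 11.8, 25.5, 22.9, 30.0 and 21.3 CPM to 216, 175, 226, 703 and 728 CPM (log2 fold change 4.03 ± 0.30, adjusted p = 6.3e-12). Ccr2, the monocyte receptor for Ccl2, fell by 0.77 ± 0.19 on the log2 scale (adjusted p = 0.0023, and 0.23 without the block).

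The window before Cxcl2 is shown as that of a rising chemokine that holds the κB motif GGANTTTCC, searched on both strands and in capitals here (GRCm38.p6, chr5:90903649-90903898, plus strand, 96 bases before the start).
Cxcl2: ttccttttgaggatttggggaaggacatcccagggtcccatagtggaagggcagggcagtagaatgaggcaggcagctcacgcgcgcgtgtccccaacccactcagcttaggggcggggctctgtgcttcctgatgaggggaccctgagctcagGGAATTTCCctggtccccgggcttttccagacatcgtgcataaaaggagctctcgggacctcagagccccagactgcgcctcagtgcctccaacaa
This motif stood before 1.25% of all genes and 1.46% of the tested genes. It stood before 4 of 14 chemokine genes with a region (Cxcl1, Cxcl10, Cxcl2 and Cxcl3). Of the inflammatory genes 3 of 12 held it (Csf1, Ifnb1 and Il6), and of the NF-κB genes 3 of 10 (Nfkb2, Nfkbia and Tnfaip3). Il6 and Nfkb2 were among the holders not called in resting WT cells.

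Of 16 cytokines and inflammatory mediators tested, 10 rose and 0 fell, and 9 rises held without the block. The fitted median was 1.92, the highest of the 43 lists plotted by fitted values, and the medians of single mice, on their own scale, were between 0.98 and 1.58. Osm, the cytokine oncostatin M, was at 4.81, 4.30, 4.74, 3.66 and 4.63 CPM in untreated and 46.7, 20.0, 34.4, 62.7 and 37.0 CPM in treated cells, and the groups were well apart (log2 fold change 3.07 ± 0.24, adjusted p = 1.5e-11). Tnf went from 10.6, 19.4, 7.99, 19.5 and 38.7 CPM to 30.5, 47.8, 17.4, 177 and 204 CPM; it rose in every mouse, by far the most in mice 4 and 5, and the groups overlapped (log2 fold change 2.06 ± 0.36, adjusted p = 5.7e-05). Lif, an IL-6 family cytokine, rose by 4.09 ± 0.61 and Il1a, the cytokine IL-1α, by 2.34 ± 0.37 (adjusted p = 5.6e-06 and 1.1e-05). Ptgs2, the prostaglandin synthase COX-2, rose by 2.84 ± 0.35, and Il1rn, the IL-1 receptor antagonist, by 1.79 ± 0.14 (adjusted p = 2.4e-07 and 2.9e-11). Il10, which encodes an anti-inflammatory cytokine, was under 2 CPM in all 10 libraries, with a log2 fold change of −0.73 ± 0.38 (adjusted p = 0.14).

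Among inflammasome genes, which sense damage and mature IL-1β, 3 rose and 3 fell of 12 tested (1 and 2 without the block), and 1 rise held without WT mouse 4. Il1b, the substrate, was at 2.93, 3.67, 3.45, 4.13 and 3.55 CPM in untreated and 8.94, 7.74, 7.44, 18.1 and 5.88 CPM in treated cells, a small level in both groups, without overlap (log2 fold change 1.34 ± 0.32, adjusted p = 0.0018). Nlrp3, the sensor, went from 43.8, 75.8, 49.3, 91.2 and 146 CPM to 72.2, 150.1, 88.7, 179 and 256 CPM; each mouse rose, and the call (log2 fold change 0.87 ± 0.29, adjusted p = 0.021) was lost without the block (adjusted p = 0.075) and without WT mouse 4 (adjusted p = 0.069). Pycard, the adaptor ASC, and Casp1, the protease, had log2 fold changes of −0.16 ± 0.14 and −0.10 ± 0.13 (adjusted p = 0.42 and 0.59). Txnip, described above, stands in this list as well.

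Genes of NF-κB and its inhibitors rose in 6 of 14 tested, fell in 0, and all 6 rises held without the block. Tnfaip3, the brake A20, went from 45.1, 73.8, 51.1, 66.1 and 84.8 CPM to 125, 148, 104, 231 and 258 CPM, without overlap (log2 fold change 1.39 ± 0.20, adjusted p = 3.4e-06). Nfkbiz, an atypical inhibitor, rose by 1.07 ± 0.22 and Nfkbia, the main inhibitor IκBα, by 0.95 ± 0.19 (adjusted p = 0.00044 and 0.0002). The subunit genes Nfkb1 and Nfkb2 were not called. Without WT mouse 4 their log2 fold changes were 0.05 and 0.01 (adjusted p = 0.87 and 0.98).

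Neutrophil markers were also among the called genes. Of 9 tested, 6 rose, with a median of 0.85: S100a8 (0.85), S100a9 (0.78), Camp (1.23), Ngp (0.64), Ltf (0.59) and Retnlg (1.77, all log2 fold changes). None was called without the block and none without WT mouse 4, where the median was 0.36. The summed markers of all 10 genes, given above, were higher in the treated library of each mouse, most in mouse 4. Without that mouse, the chemokine and cytokine calls for Ccl4, Ccl3, Cxcl2 and Tnf had adjusted p = 8.6e-10, 8.9e-11, 8.2e-07 and 0.0022. The part of neutrophils in the chemokine and cytokine results was not tested.

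Receptors for microbial products went both ways. Of 20 Toll-like receptors and co-receptors, 6 fell and 2 rose (3 and 1 without the block, 4 and 1 without WT mouse 4). The share called was 40%, against 34.2% of all genes. Tlr8, an RNA sensor, went from 242, 204, 203, 237 and 152 CPM to 141, 129, 100.0, 74.1 and 78.1 CPM, without overlap (log2 fold change −1.01 ± 0.15, adjusted p = 6.8e-06). Tlr3, the double-stranded RNA receptor, fell by 0.83 ± 0.16 on the log2 scale, and its adaptor Ticam1 rose by 0.77 ± 0.13 (adjusted p = 0.00022 and 2.4e-05). For the LPS receptor Tlr4 the log2 fold change was −0.27 ± 0.14 (adjusted p = 0.14). Interferon-stimulated genes fell in 6 and rose in 2 of 22 tested, which is 36.4% called against 34.2% of all genes. Without the block 1 fall and 1 rise held. Stat2, a subunit of the interferon factor ISGF3, fell by 0.64 ± 0.13 on the log2 scale, and Oasl1 rose by 1.52 ± 0.25 (adjusted p = 0.0003 and 2.5e-05).

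MHC class II genes rose in 5 of 9 tested, but 1 rise held without the block and 1 without WT mouse 4. H2-Aa was at 67.5, 102, 67.9, 239 and 67.6 CPM in untreated and 79.1, 122, 72.4, 453 and 88.2 CPM in treated cells, with mouse 4 far above the others in both groups (log2 fold change 0.39 ± 0.11, adjusted p = 0.006, 0.53 without the block and 0.11 without that mouse).

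Growth factors and endothelin genes rose in 3 and fell in 1 of 10 tested (2 and 0 without the block), which is 40% called against 34.2% of all genes. Hbegf, a ligand of the EGF receptor, went from 0.408, 0.187, 0.0677, 0.874 and 0.190 CPM to 4.09, 2.02, 1.82, 11.1 and 6.53 CPM, with no overlap (log2 fold change 3.84 ± 0.38, adjusted p = 2.9e-09). Thbs1, the matrix protein thrombospondin 1, rose by 1.37 ± 0.41 (adjusted p = 0.011, and 0.22 without the block). Receptors for extracellular ATP and adenosine rose in 4 and fell in 3 of 12 (3 and 1 without the block). P2rx7, the ATP-gated channel that triggers NLRP3, was at 82.4, 103, 93.7, 106 and 76.6 CPM in untreated and 51.4, 70.3, 52.8, 43.0 and 47.0 CPM in treated cells, without overlap (log2 fold change −0.81 ± 0.12, adjusted p = 2.8e-06). P2ry2, a G protein-coupled ATP receptor, rose by 1.39 ± 0.13, and Adora2b, an adenosine receptor, by 1.60 ± 0.22 (adjusted p = 7.5e-10 and 1e-06).

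Few proliferation and ribosome genes were called. Of 30 cell cycle genes, 3 rose and 2 fell (1 and 1 without the block). Mki67, a marker of cycling cells, rose by 0.75 ± 0.19 and Mcm6, a subunit of the replicative helicase, fell by 0.45 ± 0.10 on the log2 scale (adjusted p = 0.0023 and 0.00081). Of 22 ribosome biogenesis genes, 2 rose and 2 fell, among them Npm1, a nucleolar chaperone, which rose by 0.44 ± 0.09 (adjusted p = 0.00048). Of the 19 macrophage identity genes, 2 rose and 3 fell (0 and 1 without the block). Maf, a factor of resident macrophages, went from 480.5, 559.8, 391, 518 and 364 CPM to 314, 314, 174, 255 and 181 CPM, without overlap (log2 fold change −0.94 ± 0.12, adjusted p = 6.3e-07). Csf1r, the M-CSF receptor, fell by 0.22 ± 0.07 on the log2 scale (adjusted p = 0.021, 0.36 without the block and 0.11 without WT mouse 4). Summed markers of 5 other cell types were highest in WT mouse 4, in the untreated and in the treated resting WT libraries, and higher there with the drug. In that mouse the untreated and treated sums were 2.62 and 9.45 CPM for B cells, 5.96 and 20.2 for dendritic cells, 1.11 and 12.1 for mast cells and basophils, 5.48 and 21.4 for the erythroid and megakaryocyte list, and 40.9 and 75.3 for stromal cells. In the other 4 mice these 5 sums were at most 20.7 CPM in any resting WT library, the highest being the stromal sum of treated mouse 1. The T and NK cell sum was at most 1.66 CPM in any resting WT library, in treated mouse 4. The part of these cells in the results was not tested. No B cell, T and NK cell, dendritic cell or stromal marker was called, while the mast cell protease Prss34 and the megakaryocyte integrin Itga2b were, and neither was without the block or without WT mouse 4.

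**Figure D3:**
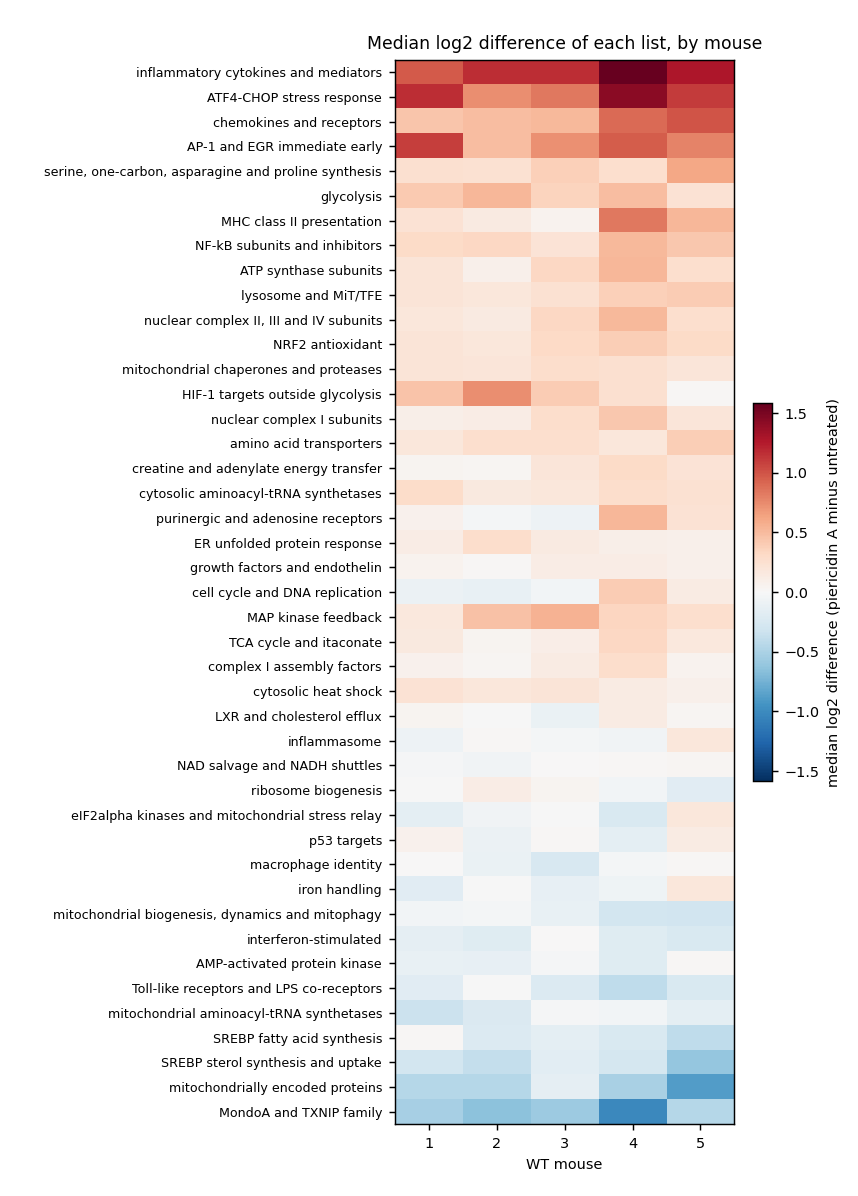
Median log2 difference (piericidin A minus untreated) over the tested members of 43 gene lists, one row a list, in each of the 5 WT mice, red for higher and blue for lower. The ATF4-CHOP list is above 0 in all mice, from 0.74 to 1.43, and the MondoA and TXNIP family is below 0 in all, from −1.02 to −0.45.

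The response of resting cells was next compared with that of the same 5 mice under LPS, where piericidin A plus LPS was set against LPS alone. These effects share mice but no libraries. Under LPS, 34.5% of the tested genes were called (4090 genes), and 1821 genes were called in both settings, which is 45.0% of the genes called at rest and 44.5% of those called under LPS. Of these, 1597 changed in the same direction and 224 in opposite directions. The difference between the effects was itself past the threshold for 2066 genes, or 17.4% of those tested (1124 with a more positive effect at rest and 942 with a more negative one), and for 563 without the block, 256 and 307. Without WT mouse 4 the count was 1059, and without WT mouse 5 it was 1132.

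The HSP70 genes Hspa1a and Hspa1b rose at rest and were not called under LPS (adjusted p = 0.97 and 0.22). In the whole heat shock list, 1 gene rose and 5 fell under LPS. Hspa1a was at 8.71, 8.65, 10.2, 9.74 and 7.87 CPM with LPS in mice 1 to 5 and 10.2, 7.29, 11.5, 14.2 and 4.52 CPM with LPS and piericidin A, and the difference of the effects was 5.16 ± 0.43 on the log2 scale (adjusted p = 1.9e-09). For Hspa1b the difference was 4.73 ± 0.42 (adjusted p = 3.2e-09). Rasd2 rose by 2.45 ± 0.67 under LPS, which was less than at rest by 4.64 ± 1.19 (adjusted p = 0.0064). Its standard errors are rough, since untreated libraries held so few of its reads.

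Ccl4, Il1b and Tnf had far higher levels with LPS alone than with piericidin A alone. Ccl4 averaged 268 ± 273 CPM with piericidin A, 2037 ± 622 CPM with LPS and 2970.1 ± 1311 CPM with both (SD, n = 5), and the drug's effect under LPS was 0.43 ± 0.29 (adjusted p = 0.26), less than at rest by 4.33 ± 0.46 (adjusted p = 9.8e-08). Il1b averaged 9.62 ± 4.87 CPM with piericidin A and 1628 ± 687 CPM with LPS, and its effect under LPS was −0.88 ± 0.25 (adjusted p = 0.0069); the effects differed by 2.22 ± 0.41 (adjusted p = 0.00028). Tnf averaged 95.3 ± 88.0 CPM with piericidin A and 1556 ± 421 CPM with LPS, with a difference of effects of 1.87 ± 0.48 (adjusted p = 0.0071, and 0.091 without the block). Pfkfb3 rose at rest and fell under LPS, a difference of 2.14 ± 0.26 (adjusted p = 9.3e-07). The median of the cytokine list was 1.92 at rest and 0.01 under LPS, and 8 of its members had a more positive effect at rest.

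Some stress genes rose in both settings. Gdf15 rose by 2.92 ± 0.28 under LPS, and the difference from rest was 1.01 ± 0.37 (adjusted p = 0.058). Tox2 rose by 2.81 ± 0.47 under LPS (difference 0.40 ± 0.67, adjusted p = 0.74), and Vegfa by 1.33 ± 0.15 (difference 0.52 ± 0.20, adjusted p = 0.072). The effect on Atf4 was 0.19 ± 0.12 under LPS, a difference of 1.14 ± 0.17 (adjusted p = 1.4e-05, and 0.058 without the block). The median of the ATF4 and CHOP list was 1.18 at rest and 0.36 under LPS, and 8 members had a more positive and 1 a more negative effect at rest. The lysosome list stood at 0.29 and 0.20, and the synthesis genes for serine and one-carbon units at 0.40 and 0.42.

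For some genes the effect was more positive under LPS. Arl4c, a small GTPase, averaged 159.5 ± 48.2 CPM untreated and 238 ± 89.0 CPM with piericidin A, against 13.4 ± 4.34 CPM with LPS and 191 ± 106 CPM with both, a difference of effects of −3.22 ± 0.27 (adjusted p = 1.9e-09). Angptl4, which fell at rest, had an effect of 1.30 ± 0.56 under LPS, where its level was low (0.553 ± 0.412 CPM with LPS alone). The effects differed by −3.08 ± 0.60 (adjusted p = 0.00053). The sterol list went the other way, with a median of −0.29 at rest and −0.91 under LPS. Its effect was more positive at rest for 11 of 23 members and more negative for 1. Txnip fell in both settings, by more at rest (difference −1.20 ± 0.29, adjusted p = 0.0048, but 0.14 without the block).

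**Figure D4:**
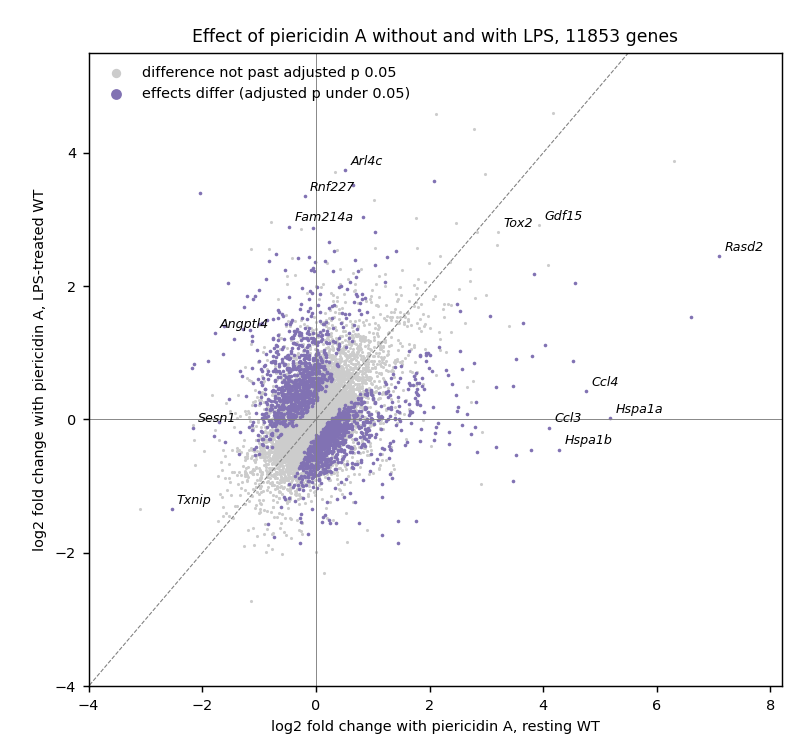
Log2 fold change with piericidin A in resting WT BMDMs (horizontal) against that in LPS-treated WT BMDMs (vertical) for 11853 genes, a point a gene, with genes whose effects differ in purple and the line of equal effects dashed. Hspa1a, Hspa1b, Ccl3 and Ccl4 lie far to the right near a vertical value of 0, while Arl4c lies high near a horizontal value of 0.51.

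In resting NDI1 BMDMs the same dose of piericidin A changed no gene past the threshold (0 of 11853 in edgeR; 284 had an unadjusted p under 0.05), nor did DESeq2 call any (0, with 268) or edgeR without the block (0, with 58). The difference between the WT and NDI1 effects was past the threshold for 1062 genes, or 8.96% of those tested, 610 with a more positive and 452 with a more negative effect in WT. Without WT mouse 4 the count was 650, and without WT mouse 5 it was 633. Without the block the count was 150, of which 130 (86.7%, against 57.4% with the block) were more positive. Of the 1062, 1055 were called in resting WT cells, and all 1055 had a smaller absolute change in NDI1. This comparison uses the same WT libraries as the rest, so its signs follow from them. Over the genes called in WT, the mean log2 difference in the WT direction was 0.23, 0.0068, 0.058, 0.038 and 0.049 in NDI1 mice 1 to 5.

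Several genes named above were among the 1062. Hspa1a was at 2.19, 2.49, 1.46, 2.33 and 4.01 CPM in the untreated and 2.04, 3.42, 0.927, 2.03 and 3.20 CPM in the treated NDI1 libraries, and the WT effect exceeded the NDI1 effect by 5.31 ± 0.49 on the log2 scale (adjusted p = 3.5e-08). Gdf15 was at 44.5, 24.6, 29.6, 28.3 and 55.0 CPM and 85.8, 33.3, 39.4, 38.9 and 61.4 CPM, a difference of 3.44 ± 0.38 (adjusted p = 1.9e-07). Txnip was at 824, 814, 849, 599 and 627 CPM and 558, 747, 737, 571 and 511 CPM, and the WT effect minus the NDI1 effect was −2.29 ± 0.29 (adjusted p = 2.6e-06). In NDI1 cells untreated and treated libraries overlapped for these genes. Within the mouse, Gdf15 was higher and Txnip lower in the treated library of all 5 NDI1 mice, with log2 fold changes of 0.48 ± 0.26 and −0.25 ± 0.20 (adjusted p = 1 and 1).

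Differences were also past the threshold for Rasd2 (6.09 ± 1.08, adjusted p = 0.0003), Dusp8 (4.38 ± 0.44, adjusted p = 6e-08), Ccl4 (4.08 ± 0.50, adjusted p = 1.2e-06) and Sesn1 (−1.99 ± 0.22, adjusted p = 2.8e-07). For Atf4 the difference was 1.12 ± 0.17 (adjusted p = 2.9e-05, but 0.12 without the block). List by list, 11 of 16 ATF4 and CHOP genes, 13 of 37 lysosomal genes, 7 of 20 cytosolic tRNA synthetases and 9 of 17 immediate early genes had a more positive effect in WT, against 8.96% of all genes in either direction. None of the 36 nuclear complex I subunits differed, and their median was 0.23 in WT and 0.11 in NDI1 cells. Of the mitochondrially encoded genes, 3 of 7 fell more in WT, and the median was −0.46 in WT and 0.02 in NDI1. For Il1b, Nlrp3 and Acod1 the difference did not pass the threshold (adjusted p = 0.24, 0.33 and 0.15).

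**Figure D5:**
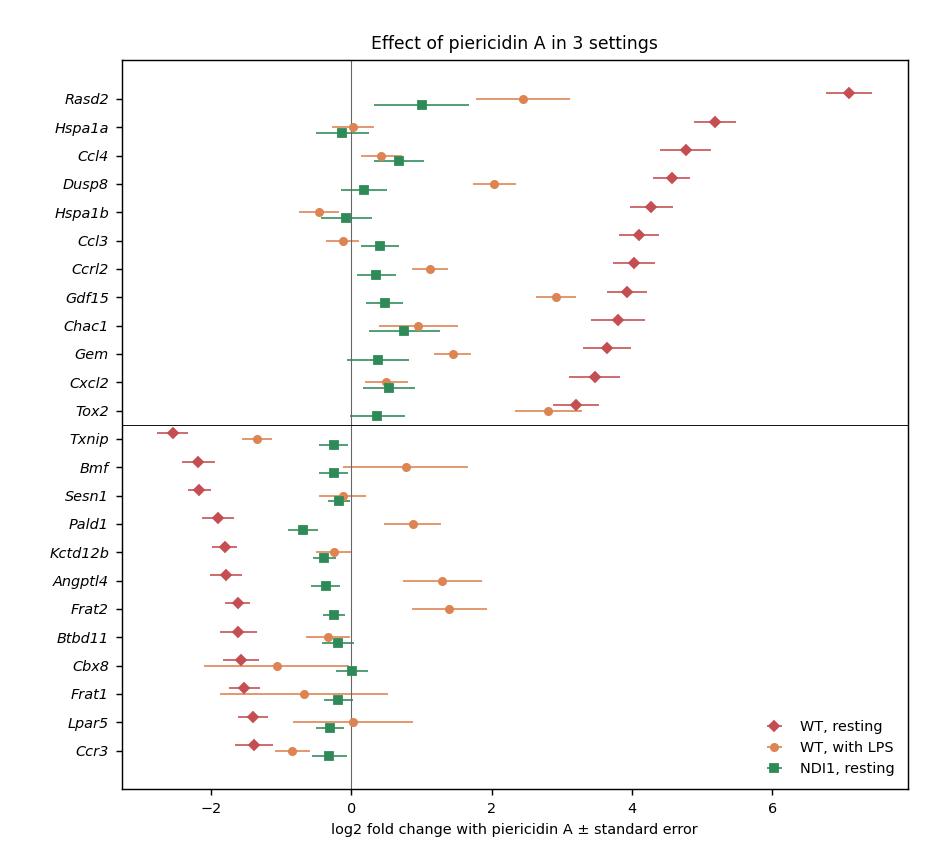
Log2 fold change with piericidin A (horizontal, bars are standard errors) for the 12 largest rises (above the line) and 12 largest falls (below it) of resting WT BMDMs, in resting WT (diamonds), LPS-treated WT (circles) and resting NDI1 (squares) cells, each of 5 mice. The NDI1 values run from −0.68 to 1.00, smaller in size than every resting WT value drawn, while Gdf15, Tox2, Dusp8 and Rasd2 also rose under LPS.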

How the data were processed

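RNA of 40 BMDM libraries was analysed, 5 in each of 8 groups. The authors demultiplexed with bcl2fastq, trimmed with Trimmomatic, aligned to mm10 with STAR and counted reads in genes with HTSeq. The deposited values are raw counts per gene. The annotation release and the strand setting of the counting are not given in the sources used here, so genes that overlap others cannot be fully told apart, and those named are said to overlap. Gene positions are those of the table. 1 column of reads of no library was left out.

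Counts were fitted with edgeR (4.0.16) in R (4.3.3), with TMM factors, over the 11853 of 43430 genes that passed filterByExpr, with all 40 libraries in 1 quasi-likelihood fit that held the mouse as a block and a treatment effect per genotype. Standard errors are the absolute log2 fold change over the square root of F. Where a group has almost no reads, as for Rasd2, they are rough and do not combine across settings. CPM were made from the deposited counts and the TMM-scaled library sizes. Calls have a Benjamini-Hochberg adjusted p under 0.05. Libraries with the same number deviated together from their group means (mean r = 0.563, 0.424 to 0.686, over 5 pairs, against −0.133 for 20 pairs of different mice), and each piericidin A library correlated best with its own number. Since the same number takes part in each treatment, the block takes out differences in level between mice. The p-values rest on the remaining spread, estimated over all 40 libraries and not from the resting WT pairs alone. With the compared libraries alone, adjusted p went from 2e-16 to 1.1e-07 for Rasd2 and from 5.2e-14 to 1.2e-06 for Hspa1a. For Ccl4 it went from 1.5e-11 to 2e-05, and for Slc7a11 the other way, from 1.9e-06 to 3.3e-08. The number of genes called was then 4222.

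Genes for the text were drawn from the 12 largest rises and falls among called genes whose log2 CPM averaged 1 or more and that had 1 direction in all 5 mice, up to 4 called members and 2 others of each of 50 lists, the 4 largest differences per direction, and 7 genes of the inflammasome and energy question (Il1b, Tnf, Il10, Nlrp3, Pycard, Casp1 and Ckb); further members of the lists are named as examples after their values were seen. The members and lists were chosen with earlier results of these data known. Alternatives were no replicate block, DESeq2 (1.42.0), RLE factors, other filters, only the compared libraries, a 2-fold minimum and each mouse left out. Reads carry no molecular identifiers. Scripts were tested on simulated data. Sequences are from RefSeq (GRCm38.p6), which held windows for 10 of the 12 rises and 10 of the 12 falls. Python 3.11.15, pandas 2.3.3, numpy 2.4.6 and matplotlib 3.10.9 were used.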

Additional observations from a re-analysis of the deposited data

Results flagged for a closer look

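Within the 286 genes named, the log2 difference of a single WT mouse stood apart from those of the other 4 for 15 genes, by a gap test that chance alone passes in about 1 in 20 groups. Mice 1, 2, 3, 4 and 5 account for 4, 1, 0, 5 and 5 of them. Mouse 4 was lowest for Abca1 (−0.98, nearest −0.33) and Trp53inp1 (−1.45, nearest −0.80), and highest for Atp5g2 (0.96, nearest 0.43), Pdhb (0.99, nearest 0.44) and Pdgfa (1.56, nearest 0.85). Mouse 5 was lowest for Frat1 (−2.35, nearest −1.31) and Pars2 (−0.82, nearest −0.55), and highest for Mylip (0.80, nearest 0.40), Slc11a2 (0.91, nearest 0.69) and Nek7 (0.38, nearest 0.034). Mouse 1 was highest for Slc7a11 (2.73, nearest 2.37) and Mki67 (1.22, nearest 0.72), and lowest for Ampd2 (−0.67, nearest −0.44) and Hk3 (0.060, nearest 0.21). Mouse 2 was lowest for Cd68 (0.28, nearest 0.36). All of these are log2 differences of piericidin A against untreated.

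The effect of piericidin A differed between resting and LPS-treated WT cells for 2066 genes and between WT and NDI1 resting cells for 1062, by the test of the difference. Against LPS, the largest differences on the log2 scale were 5.16 for Hspa1a, 4.73 for Hspa1b, 4.64 for Rasd2 and 4.33 for Ccl4 with a more positive effect at rest, and −3.55 for Rnf227, −3.36 for Fam214a, −3.22 for Arl4c and −3.08 for Angptl4 with a more negative one. Rnf227, a RING finger gene, and Fam214a were low with LPS alone, at 0.0214 ± 0.0478 and 0.274 ± 0.282 CPM (SD, n = 5), so these differences rest on few reads. Against NDI1, the largest were 6.09 for Rasd2, 5.31 for Hspa1a, 4.38 for Dusp8 and 4.35 for Hspa1b, and −2.29 for Txnip, −1.99 for Sesn1, −1.93 for Bmf and −1.58 for Cbx8. For Cbx8 this was not called without the block (adjusted p = 0.13). No explanation of these differences was tested.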

How the results depend on the processing

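The resting WT count of 4049 kept within 1.5 times under DESeq2 (4185), RLE factors (4068), no filter on low counts (3777), at least 10 counts in every library (3891) and the compared libraries only (4222). Without the replicate block, which the pairing by mouse supplies, the counts were 1759 for the resting WT effect, 563 for its difference from LPS and 150 for its difference from NDI1. With a 2-fold minimum they were 509, 538 and 273. The difference from NDI1 gave 1706 genes when the compared libraries alone were fitted. With each WT mouse left out, the counts ran from 2821 to 3898 for the resting effect, 1059 to 2006 for the difference from LPS and 633 to 1269 for that from NDI1. WT mice 4 and 5 moved the last 2 most: without mouse 4 the counts were 1059 and 650, and without mouse 5 they were 1132 and 633. Of 190 named genes that were called, 118 were called in every alternative run, 71 lost the call without the block and 33 without WT mouse 4, and no called gene changed direction. In lists, leaving out WT mouse 4 lowered the called members by more than 1.5 times for respiratory chain, ER stress, TCA cycle, AMP-activated protein kinase, LXR, Toll-like receptor, MHC class II, neutrophil, mast cell and erythroid lists, as given above. Depth of 8955095 to 12263814 counts a library in resting WT cells leaves genes near 1 CPM with about 10 reads. The response of each mouse was not run under the alternatives. How reads of overlapping genes were assigned was not tested.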
